A study of Mus musculus with 18 samples.

Results

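The 9 genes described here are Ifnb1, Ifnar1, Ifnar2, Ifngr1, Ifngr2, Stat2, Stat4, Stat5a and Stat6, which encode a type I interferon, the receptor chains for type I and type II interferon, and 4 of the STAT transcription factors that receptors of this kind activate. They were taken by gene symbol from a fixed list, which was chosen with earlier results of these data known. All 9 of the 9 listed genes were found among the 24485 genes of each library. RNA was sequenced from 18 libraries of bone marrow-derived macrophages (BMDMs), which are macrophages grown for days in culture from bone marrow. All 18 came from Il10-/- mice on the C57BL/6J background, male and 12 weeks old according to the methods of the study, so the controls lack the cytokine IL-10 too and no wild-type cells enter the comparisons. The 6 groups of 3 libraries were unstimulated cells without treatment, cells given (+)-JQ1 at 500 nM, cells given IL-10 at 10 ng/mL, and the same 3 pretreatments followed by lipopolysaccharide (LPS) at 50 ng/mL. Pretreatment lasted 12 hours, LPS or saline buffer was then present for 4 hours, and the total was 16 hours in each group. (+)-JQ1 is a small molecule that blocks BET proteins from reading acetylated histones by filling their bromodomains. LPS is a cell wall component of Gram-negative bacteria. The design asks what a BET inhibitor does to the LPS response of such macrophages, beside the cytokine that they cannot make.

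In a macrophage, LPS bound to its receptor starts the production of interferon beta, the protein of Ifnb1, through the transcription factors of the IRF and NF-kB families. Secreted interferon beta binds a receptor made of the chains IFNAR1 and IFNAR2, on the same cell or on its neighbours, and the kinases JAK1 and TYK2 then phosphorylate STAT2, which joins IRF9 and turns on the interferon-stimulated genes. Interferon gamma uses a separate receptor of the chains IFNGR1 and IFNGR2, and STAT4, STAT5A and STAT6 serve mainly the receptors for IL-12, for GM-CSF and related growth factors, and for IL-4 and IL-13.

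Library totals lay between 6781952 and 28289498 expected counts, so 3 counts, the floor used here, were worth between 0.106 and 0.442 CPM. Such floors and the counting intervals below cover counting error only. The 10 macrophage markers on a fixed list summed to between 17911 and 32612 TPM (a library's length-scaled transcript share) per library, and 18 markers of other cells to between 10.7 and 81.5 TPM, with the neutrophil marker Ly6g at 0 in all libraries. The knocked-out gene Il10 still had reads in every library, with group means of 32.5 to 155 normalised counts. As checks of the treatments, the JQ1-responsive gene Hexim1 rose from 690 ± 31.9 to 3103 ± 60.4 normalised counts with JQ1 (SD, n = 3), and Socs3, a target of IL-10 signalling, stood at 775 ± 135 with IL-10 and at 77.8 ± 83.2 without. Unstimulated replicate 1 stood apart: all 24 of 24 interferon-stimulated genes on a fixed list were highest there among the 3 unstimulated libraries, at a summed 864 TPM against 390.4 and 444 TPM. All comparisons of the members that use it were also run without it, and where that changed a call, or moved a called fold change by over 1.5 times, both values are given.

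Levels of different genes are compared below only in TPM. Changes are log2 fold changes ± standard error (SE) from the DESeq2 Wald test over all 18 libraries, and a gene counts as changed at a Benjamini-Hochberg adjusted p under 0.05. The LPS response depended on the scaling. With median-of-ratios scaling the median log2 fold change of the LPS response was -0.03 over the 11390 genes with a mean of at least 10 normalised counts, whereas it was -0.96 with total-count scaling and -0.67 over 11384 genes on the log2(TPM + 1) scale. Genes called higher were 48.9% of those called with the first scaling and 20.1% with total counts, and a change of a member that turns with the scaling is named where it is given. In bulk RNA, fewer cells with a transcript and less of it per cell cannot be told apart.

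LPS changed all 9 members, whereas 63.1% of the 15285 genes tested were called. The 7 that rose were Ifnb1, Ifnar1, Ifnar2, Ifngr2, Stat2, Stat4 and Stat5a, in a comparison where 30.8% of genes tested were called higher, and the 2 that fell were Ifngr1 and Stat6, where 32.2% were called lower. With total-count scaling, 4 members were called higher and 3 lower. The rises that held under every scaling were those of Ifnb1, Stat2, Stat4 and Stat5a.

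**Figure D1:**
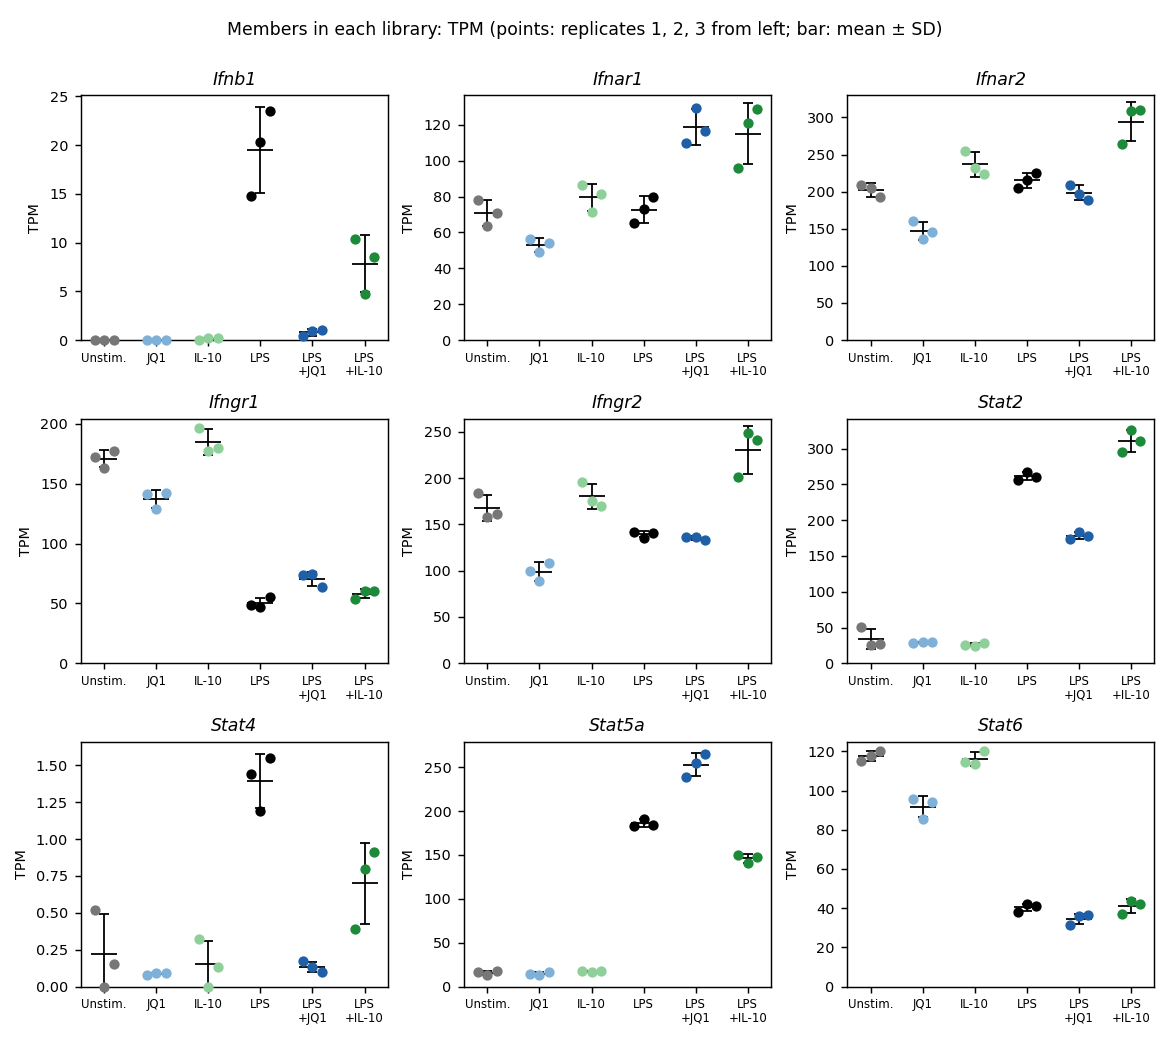
TPM (y axis, from 0) of each member in each of the 6 groups (x axis), with 1 point per library, replicates 1 to 3 from left to right, and a bar at the mean ± SD. Ifnb1 and Stat4 are close to 0 in the 3 LPS + JQ1 libraries, whereas Stat5a is highest there, at 239 to 265 TPM.

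Ifnb1, the ligand, lies on the minus strand of mm9 chromosome 4 at 88167929-88168698. Its promoter is shown because its letters include the kinds of element through which IRF and NF-kB factors act, the factors upstream of this gene in the LPS response. The stretch runs from 174 to 92 bases before the RefSeq transcription start (GRCm38.p6 chromosome 4, chr4:88522886-88522968, minus strand), and capitals mark matches to the letters AANNGAAA, an IRF element, and to an NF-kB site spelled GGGA, any 2 bases, then TTCC.
Ifnb1: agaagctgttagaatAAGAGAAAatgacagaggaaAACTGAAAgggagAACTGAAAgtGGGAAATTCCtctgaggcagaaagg
In the 250 bases before the start, 3 matches to AANNGAAA began 159, 139 and 126 bases before it and 1 match to the NF-kB letters began at 116 bases. Over all 32851 promoters of the table, 21.3% held AANNGAAA and 1.21% held the NF-kB letters, on either strand. The letters AANNGAAA were added after the promoter had been read. The longer interferon-stimulated response element (ISRE), spelled GAAA, any 2 bases, then GAAA, was not found in this window and was present in 2.98% of promoters.

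Ifnb1 had 0 counts in all 3 unstimulated and all 3 JQ1 libraries, and 0, 1 and 1 counts with IL-10. LPS gave 80, 146 and 128 counts (14.8, 20.3 and 23.5 TPM). With LPS + JQ1 there were 2, 5 and 5 counts (0.36, 0.93 and 1.03 TPM), and with LPS + IL-10 there were 55, 21 and 59 counts (10.35, 4.68 and 8.51 TPM). The 3 LPS groups did not overlap, with LPS highest, LPS + IL-10 next and LPS + JQ1 lowest.

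Against the floor of 3 counts in each unstimulated library, LPS raised Ifnb1 at least 44.8-fold. During LPS it was 31.6-fold lower with JQ1 than without (95% exact counting interval 17.9 to 61.8), a log2 fold change of -4.96 ± 0.52 (DESeq2 adjusted p = 5.84e-21). With IL-10 it was 2.64-fold lower (interval 2.16 to 3.24), a log2 fold change of -1.40 ± 0.33 (DESeq2 adjusted p = 0.000365). The IL-10 call was lost without replicate 2 (adjusted p = 0.0991) and without replicate 3 (adjusted p = 0.0705), and over all alternatives its adjusted p ran from 6.27e-05 to 0.0991. Set directly against IL-10, JQ1 gave a lower Ifnb1 level during LPS, by 3.57 ± 0.53 on the log2 scale (DESeq2 adjusted p = 5.92e-11). In JQ1-treated cells LPS gave 12 counts over the 3 libraries against 0 without LPS, a group mean 1.64 times the floor. The 2 counts of replicate 1 lay below that floor. The other interferon genes stayed near the floor: 13 of 18 listed (Ifna genes, Ifnab, Ifne, Ifng, Ifnk, Ifnz and the lambda interferons) had 0 counts in all 18 libraries, and Ifnz, the highest, had 34.8 counts in all.

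The receptor chains were expressed in every group, whereas the ligand was detected almost only after LPS. Of these genes Ifnar2, Ifnar1 and Ifngr2 are neighbours on the plus strand of mm9 chromosome 16, at 91373028-91419696, 91485483-91507686 and 91547317-91565414, and Ifngr1 lies apart on the plus strand of chromosome 10 at 19311755-19330035. Exons of Ifnar2 share 569 bases with those of the neighbouring Il10rb on the same strand, so reads of these 2 genes can be split between them.

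Ifnar1, the chain that carries TYK2, had 78.05, 63.7 and 71.1 TPM without any treatment, 56.5, 48.8 and 54.1 under JQ1 alone and 86.4, 71.5 and 81.1 under IL-10 alone. LPS gave 65.3, 72.9 and 80.0 TPM, JQ1 before LPS gave 109.8, 129 and 116, and IL-10 before LPS gave 95.8, 121 and 129. On this scale the LPS libraries overlapped the unstimulated ones, and both pretreated LPS groups lay above all other libraries and overlapped each other. In the count model Ifnar1 rose with LPS by 0.81 ± 0.08 (DESeq2 adjusted p = 9.56e-24), but the value was -0.12 with total-count scaling and 0.04 in TPM. During LPS it was higher with JQ1 by 0.40 ± 0.08 (DESeq2 adjusted p = 1.2e-06) and with IL-10 by 0.55 ± 0.08 (DESeq2 adjusted p = 1.64e-10), and every alternative kept both calls.

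Ifnar2, the chain that binds JAK1 and STAT2, differed from Ifnar1 in its JQ1 effect during LPS. It had 209, 205 and 192 TPM without any treatment, 160.4, 136 and 146 under JQ1 alone and 255, 231 and 223 under IL-10 alone. LPS gave 205, 215 and 226 TPM, JQ1 before LPS 209, 197 and 189, and IL-10 before LPS 264, 308 and 311. The JQ1 libraries were the lowest of the 6 groups and the LPS + IL-10 libraries the highest, and neither overlapped its neighbour in this order. During LPS, JQ1 lowered Ifnar2 by 0.50 ± 0.07 (DESeq2 adjusted p = 2.39e-13) and IL-10 raised it by 0.51 ± 0.07 (DESeq2 adjusted p = 6.84e-13), so that LPS cells given JQ1 had less of it than LPS cells given IL-10, by 1.01 ± 0.07 on the log2 scale (DESeq2 adjusted p = 2.45e-51). The JQ1 value was -0.12 with total-count scaling and -0.11 in TPM, neither past the threshold. The gap between the pretreatments was called under every alternative, but it was smaller on these scales, at -0.73 with total-count scaling and -0.56 in TPM. The LPS response was 0.86 ± 0.07, but -0.07 with total-count scaling.

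The effective length that RSEM gave Ifnar2, an average over its transcripts weighted by their abundance, also differed between groups. It was 1235 to 1286 bases with JQ1, 1393 to 1475 in unstimulated cells, 1403 to 1501 with IL-10, 1383 to 1464 with LPS, 1282 to 1394 with LPS + JQ1 and 1567 to 1640 with LPS + IL-10. For Ifnar1 it ran only from 6806 to 6839 bases over all libraries. With these lengths as an offset, the LPS and IL-10 interaction of Ifnar2 fell from 0.32 to 0.17 and was no longer called (adjusted p = 0.507). In the same fit the IL-10 effect during LPS was 0.34 rather than 0.51, and JQ1 against IL-10 was -0.75 rather than -1.01. The ratio of Ifnar1 to Ifnar2 TPM was 0.309 to 0.373 in unstimulated, JQ1, IL-10 and LPS libraries, 0.363 to 0.414 with LPS + IL-10 and 0.524 to 0.656 with LPS + JQ1. The LPS + JQ1 libraries thus lay above all 15 others in this ratio.

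Ifngr1, the ligand-binding chain of the interferon gamma receptor, fell with LPS whatever the pretreatment. Its TPM was 172, 164 and 178 without any treatment, 142, 129 and 142 under JQ1 alone and 197, 177 and 179.7 under IL-10 alone. LPS gave 48.8, 47.4 and 55.6 TPM, JQ1 before LPS 73.7, 74.3 and 63.4 and IL-10 before LPS 53.75, 60.4 and 60.6. All 9 libraries with LPS lay below all 9 without. The LPS change was -0.98 ± 0.07 (DESeq2 adjusted p = 8.58e-45), and it kept its direction under every scaling. During LPS, Ifngr1 was higher with JQ1 by 0.18 ± 0.07 (DESeq2 adjusted p = 0.0209), although the normalised counts of these groups overlapped. That call was lost without replicate 1 (adjusted p = 0.303) or replicate 2 (adjusted p = 0.301). Over the alternatives that adjusted p ran from 4.23e-12 to 0.303.

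Ifngr2, the chain that carries JAK2, had 183, 158 and 162 TPM without any treatment, 99.9, 88.7 and 109 under JQ1 alone and 196, 175 and 169.9 under IL-10 alone. LPS gave 141, 135 and 141 TPM, JQ1 before LPS 137, 136 and 133, and IL-10 before LPS 201, 249 and 241. JQ1 without LPS gave the lowest values and LPS + IL-10 the highest, the same extremes as for Ifnar2. The IL-10 effect during LPS was 0.61 ± 0.09 (DESeq2 adjusted p = 5.72e-11) and the JQ1 effect without LPS was -0.56 ± 0.09 (DESeq2 adjusted p = 1.65e-09), both called under every alternative. Its LPS response depended on the scaling, at 0.51 ± 0.09 with median-of-ratios, -0.41 with total-count scaling and -0.26 in TPM, each past the threshold. The JQ1 effect during LPS was -0.35 ± 0.09 (DESeq2 adjusted p = 0.000143) and 0.03 with total-count scaling.

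The ratio of Ifngr1 to Ifngr2 TPM was 0.938 to 1.10 in unstimulated cells, 1.31 to 1.45 with JQ1 alone and 1.01 to 1.06 with IL-10 alone. With LPS it was 0.345 to 0.394. It was 0.477 to 0.547 with LPS + JQ1 and 0.243 to 0.268 with LPS + IL-10, so the 3 LPS groups did not overlap. The higher ratio with JQ1 was thus present without LPS too, whereas the IL-10 libraries without LPS lay within the unstimulated range. A ratio within a library does not depend on the scaling.

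**Figure D2:**
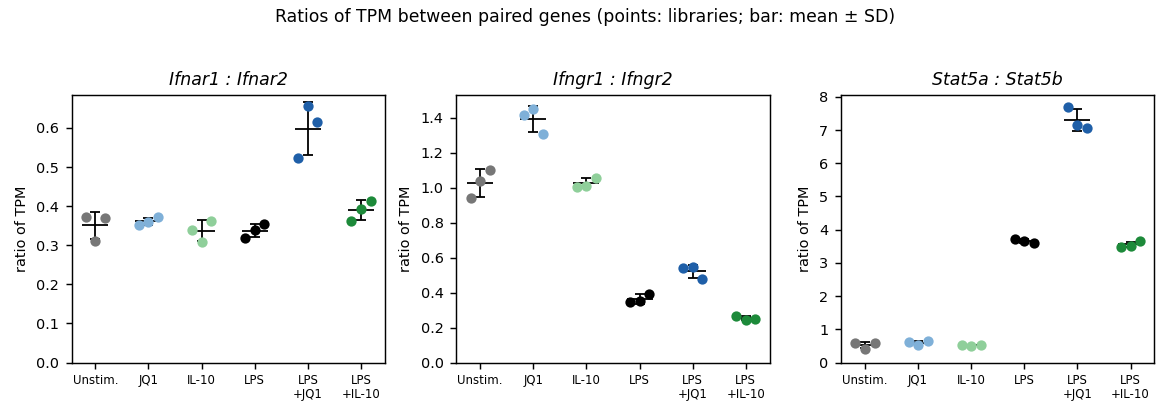
Ratio of TPM (y axis, from 0) between the genes of 3 pairs in each library of the 6 groups (x axis), with the mean ± SD as a bar. Stat5a to Stat5b reaches 7.07 to 7.68 with LPS + JQ1 against 3.59 to 3.73 with LPS, and Ifnar1 to Ifnar2 is highest in the same LPS + JQ1 libraries.

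Stat2, the STAT specific to type I and type III interferon signalling, lies on the plus strand of mm9 chromosome 10 at 127707629-127729905. Its promoter is shown because it was 1 of 2 member promoters with an ISRE match, the element that STAT2 itself binds together with IRF9. The stretch runs from 237 to 194 bases before the RefSeq start (GRCm38.p6 chromosome 10, chr10:128270261-128270304, plus strand), and capitals mark the ISRE match, read on the opposite strand, and the 2 matches to AANNGAAA that overlap it.
Stat2: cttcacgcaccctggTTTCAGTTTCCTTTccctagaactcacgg
All 9 members had an entry among these RefSeq promoters, 11 in all because Stat4 and Stat5a have 2 each. The other ISRE match began 97 bases before the second start of Stat4. Matches to AANNGAAA began 95 and 82 bases before that same start, and 1 began 49 bases before the start of Stat6. The letters TTCNNNGAA of the STAT site called GAS, present in 7.02% of promoters, matched once in Ifnar2, an NF-kB match also stood in Ifngr2, and TGANTCA (AP-1, 6.75% of promoters) matched in none of the 11.

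Stat2 had 50.4, 25.4 and 26.8 TPM in unstimulated cells, with replicate 1 as the high one. It had 28.0, 29.1 and 29.3 TPM under JQ1 alone and 25.99, 23.9 and 28.4 under IL-10 alone. LPS gave 256, 268 and 261 TPM, JQ1 before LPS 173, 183 and 178, and IL-10 before LPS 295, 327 and 311. The 3 LPS groups did not overlap. The LPS response was 3.72 ± 0.17 (DESeq2 adjusted p = 6.26e-108), and during LPS Stat2 was lower with JQ1 by 0.86 ± 0.17 (DESeq2 adjusted p = 6.52e-07), with a value of -0.49 that also passed with total-count scaling. The IL-10 effect during LPS was 0.14 ± 0.17 and did not pass the test (DESeq2 adjusted p = 0.712). In cells without LPS the JQ1 effect was -0.04 ± 0.17, and without unstimulated replicate 1 it was 0.34 ± 0.08 and called (adjusted p = 0.000262).

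Stat4, which lies on the plus strand of mm9 chromosome 1 at 52043992-52164032 and serves the IL-12 receptor, was the scarcest of the STATs. It had 12, 0 and 4 counts without any treatment, 2 in each library under JQ1 alone and 15, 0 and 3 under IL-10 alone. LPS gave 38, 36 and 37 counts, JQ1 before LPS 4, 3 and 2, and IL-10 before LPS 10, 16 and 27. In TPM the LPS libraries held 1.44, 1.19 and 1.55. The LPS libraries were the highest, and the LPS + JQ1 libraries lay within the range of cells without LPS. LPS raised it 9.42-fold (exact counting interval 5.55 to 17.1), a log2 fold change of 3.33 ± 0.62 (DESeq2 adjusted p = 2.3e-07). Unstimulated replicate 1 held 12 of the 16 unstimulated counts, and without it the log2 fold change was 4.63 ± 0.89 and again called. During LPS it was 13.2-fold lower with JQ1 (interval 6.72 to 29.7), a log2 fold change of -3.75 ± 0.69 (DESeq2 adjusted p = 1.84e-07). With IL-10 it was 2.11-fold lower (interval 1.51 to 2.98), a log2 fold change of -1.12 ± 0.53 that did not pass (DESeq2 adjusted p = 0.157). The LPS and LPS + IL-10 libraries did not overlap. Among the alternatives this change was called on the log2(TPM + 1) scale alone, at -0.50 (limma adjusted p = 0.0261). After JQ1 the LPS response was 0.87 ± 0.90 (DESeq2 adjusted p = 0.427), and Stat4 was the single member not called there.

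Stat5a, on the plus strand of mm9 chromosome 11 at 100720665-100746483, rose with LPS after every pretreatment. It had 17.0, 12.6 and 17.2 TPM without any treatment, 14.7, 13.2 and 16.2 under JQ1 alone and 17.7, 16.15 and 17.6 under IL-10 alone. LPS gave 183, 191 and 185 TPM, JQ1 before LPS 239, 255 and 265, and IL-10 before LPS 149.9, 140.4 and 148. The LPS groups did not overlap, with LPS + JQ1 highest and LPS + IL-10 lowest, an order seen in no other member. The LPS response was 4.35 ± 0.10 without pretreatment, 4.38 ± 0.09 after JQ1 and 3.81 ± 0.09 after IL-10. During LPS, IL-10 lowered Stat5a by 0.46 ± 0.09 (DESeq2 adjusted p = 2.64e-06), called under every alternative. The JQ1 effect was 0.13 ± 0.09 (DESeq2 adjusted p = 0.178), and it was called higher by edgeR at 0.23 (adjusted p = 0.0274), with TMM scaling at 0.25, with total-count scaling at 0.51 and in TPM at 0.44. Stat5a was thus not called lower with JQ1 under any of these scalings.

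The neighbouring paralog Stat5b shares near-identical sequence with Stat5a, so their reads were partly divided by estimation, and 72 exonic bases also overlap Stat3 on the opposite strand. Stat5b rose with LPS from 29.5 ± 0.327 to 50.9 ± 1.58 TPM and stood at 34.8 ± 3.30 TPM with LPS + JQ1 (SD, n = 3). During LPS, JQ1 changed Stat5b by -0.86 ± 0.08 (DESeq2 adjusted p = 4.61e-26). The ratio of Stat5a to Stat5b TPM was 0.422 to 0.586 in unstimulated cells, 3.59 to 3.73 with LPS, 3.49 to 3.65 with LPS + IL-10 and 7.07 to 7.68 with LPS + JQ1. With the counts of both genes added together the JQ1 effect during LPS was -0.07 (adjusted p = 0.414).

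Stat6, on the plus strand of mm9 chromosome 10 at 127080042-127098013, serves IL-4 and IL-13. It had 115, 118 and 120.35 TPM without any treatment, 95.6, 85.5 and 94.3 under JQ1 alone and 115, 114 and 120.05 under IL-10 alone. LPS gave 38.3, 42.1 and 40.9 TPM, JQ1 before LPS 31.5, 35.8 and 36.3, and IL-10 before LPS 37.25, 43.9 and 42.3. All 9 libraries with LPS lay below all 9 without, and the LPS + JQ1 libraries were the lowest. The LPS change was -0.76 ± 0.06 (DESeq2 adjusted p = 1.74e-37) and it was larger on the other scales. During LPS, JQ1 lowered Stat6 further by 0.54 ± 0.06 (DESeq2 adjusted p = 3.13e-17), called under every alternative but at -0.16 with total-count scaling, and the IL-10 value was -0.09 ± 0.06 (DESeq2 adjusted p = 0.386). Its exons share 40 bases with Nab2 on the opposite strand.

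**Figure D3:**
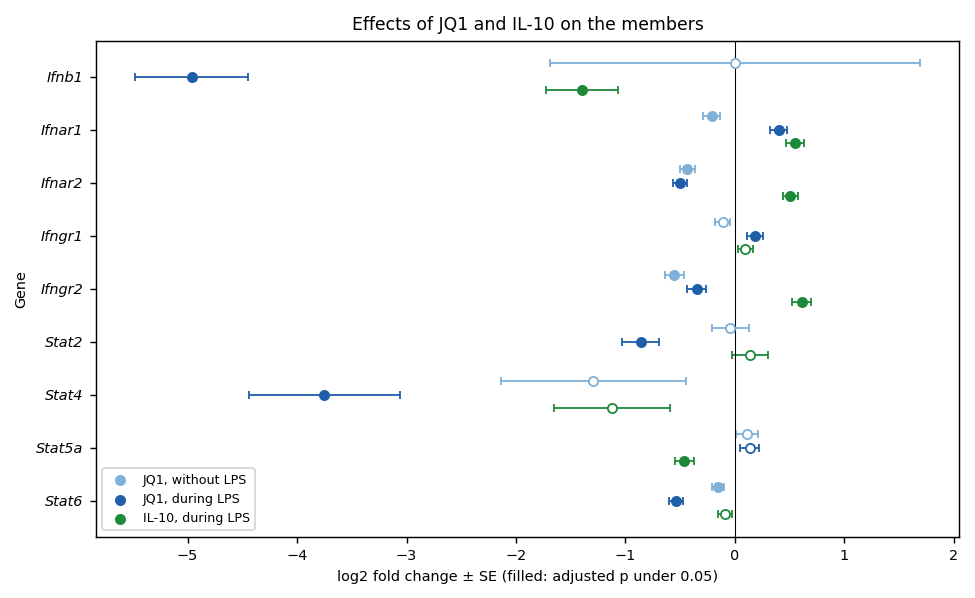
Log2 fold change ± SE (x axis) of each member (y axis) for JQ1 without LPS, JQ1 during LPS and IL-10 during LPS, with filled points at an adjusted p under 0.05. JQ1 during LPS lies at -4.96 for Ifnb1 and -3.75 for Stat4, and IL-10 lies above 0 for Ifnar1, Ifnar2 and Ifngr2.

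During LPS, JQ1 changed 8 of 9 members, against 57.3% of genes tested: Ifnar1 and Ifngr1 were higher, where 24.4% of genes were called higher, and Ifnb1, Ifnar2, Ifngr2, Stat2, Stat4 and Stat6 were lower, a direction in which 32.9% of genes were called. IL-10 changed 5 of 9, against 15.7% of genes tested. Ifnar1, Ifnar2 and Ifngr2 were higher with IL-10, where 7.67% of genes were called higher, and Ifnb1 and Stat5a were lower, where 8.02% were called lower. The median log2 fold change of the members was -0.50 with JQ1 and 0.10 with IL-10, and over all genes tested it was -0.11 and -0.02. Both comparisons share the 3 LPS libraries. Of the genes called, 42.5% were higher with JQ1 and 48.9% with IL-10, against 64.9% and 71.1% with total-count scaling, where JQ1 raised 3 members and lowered 4 and IL-10 had 3 higher and 2 lower. Set against each other during LPS, the pretreatments differed in 7 members (55.3% of genes tested, 23.8% higher and 31.6% lower with JQ1), with Stat5a higher under JQ1 and Ifnb1, Ifnar2, Ifngr2, Stat2, Stat4 and Stat6 lower. Ifnar1 differed by -0.15 ± 0.08 (95% interval -0.30 to 0.01) and Ifngr1 by 0.09 ± 0.07, and neither passed the test. Ifngr1 was called higher with JQ1 by edgeR at 0.18 (adjusted p = 0.0304), with TMM scaling at 0.19, with total-count scaling at 0.37 and in TPM at 0.27. Ifnar1 was called lower without replicate 1, at -0.20 (DESeq2 adjusted p = 0.0365).

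Without LPS, JQ1 lowered 4 of 9 members, Ifnar1, Ifnar2, Ifngr2 and Stat6, where 44.4% of genes tested were called, 21.3% higher and 23.1% lower. Of all genes called, 48.0% were higher, or 26.7% with total-count scaling, where 5 members were lower. Ifngr1, at -0.11 ± 0.07 (DESeq2 adjusted p = 0.163), was the member added there, at -0.29. In TPM it was also called lower, at -0.31 and -0.32. Ifnar2 fell by 0.44 ± 0.07, or by 0.25 with its effective lengths as an offset, and Ifngr2 by 0.56 ± 0.09. The smaller changes of Ifnar1, -0.21 ± 0.08 (DESeq2 adjusted p = 0.0200), and Stat6, -0.15 ± 0.06 (DESeq2 adjusted p = 0.0182), were lost when any 1 of the 3 replicates was left out. Without unstimulated replicate 1 alone 1 member, Stat2, was called higher and 3 lower, Ifnar2, Ifngr2 and Stat6, and Ifnar1 was at -0.15 (adjusted p = 0.167). IL-10 without LPS changed 0 of the 7 members tested by DESeq2, against 3.96% of genes tested (2.5% higher and 1.47% lower). Ifnb1 and Stat4 had too few counts there for an adjusted p, 2 members had an unadjusted p under 0.05, and edgeR called 0.

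The LPS response of several members differed with the pretreatment. Interactions of LPS and JQ1 were called for 5 of 9 members, against 40.3% of genes tested (17.2% higher and 23.1% lower). Positive interactions were 42.7% of those called and 85.5% with total-count scaling, where 5 members were positive and 1 negative. The response was larger after JQ1 for Ifnar1, by 0.61 ± 0.11 (DESeq2 adjusted p = 3.67e-07), and the fall of Ifngr1 was smaller by 0.29 ± 0.10 (DESeq2 adjusted p = 0.00829). The rise of Stat2 was smaller, by -0.82 ± 0.24 (DESeq2 adjusted p = 0.00199), and the fall of Stat6 larger, by -0.38 ± 0.08 (DESeq2 adjusted p = 2.75e-05). With total-count scaling neither Stat2, at -0.27, nor Stat6, at 0.17, was called, and neither was called in TPM. Ifngr2, at 0.21 ± 0.12 (DESeq2 adjusted p = 0.173), was called at 0.31 by edgeR and at 0.33 with TMM scaling. It was also called at 0.76 with total-count scaling and at 0.71 and 0.72 in TPM. Stat5a, at 0.02 ± 0.13, was called at 0.58 with total-count scaling and at 0.51 and 0.52 in TPM. Ifnar2, at -0.06 ± 0.10, was called at 0.49 and at 0.34 and 0.35 on these scales. Leaving out a replicate ended the call of Ifngr1 (adjusted p = 0.194 without replicate 1 and 0.269 without replicate 2), of Stat2 (0.122 without replicate 2 and 0.125 without replicate 3) and of Stat6 (0.0980 without replicate 1). For Ifnb1 the fitted interaction was -4.91 ± 1.77 (DESeq2 adjusted p = 0.0164), but it rests on groups with 0 counts and it was not called by edgeR (adjusted p = 0.9999), without replicate 1 (adjusted p = 0.1001) or without replicate 3 (adjusted p = 0.0809). Stat4, at -2.46 ± 1.09, did not pass (DESeq2 adjusted p = 0.0582). It was called at -3.75 ± 1.24 without unstimulated replicate 1 (DESeq2 adjusted p = 0.00841) and at -3.96 without replicate 1 (adjusted p = 0.0357). It was also called with the replicate number as a block (adjusted p = 0.0401), with a filter of 10 counts in 3 libraries (adjusted p = 0.0451) and in TPM with a pseudocount of 1 (adjusted p = 0.00119) or 0.1 (adjusted p = 0.0232). The count was 3 without replicate 1, without replicate 2 and without replicate 3 alike, and Ifnar1 was called each time.

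Interactions of LPS and IL-10 were called for 4 of 9 members, against 6.6% of genes tested (3.57% higher and 3.03% lower). Positive interactions were 54.1% of those called and 73.7% with total-count scaling. The LPS response was larger after IL-10 for Ifngr2 by 0.56 ± 0.12 (DESeq2 adjusted p = 0.000207), for Ifnar1 by 0.43 ± 0.11 (DESeq2 adjusted p = 0.00286) and for Ifnar2 by 0.32 ± 0.09 (DESeq2 adjusted p = 0.0135), and smaller for Stat5a by -0.55 ± 0.13 (DESeq2 adjusted p = 0.00127). None of the 4 was called without replicate 2, and Ifngr2 and Stat5a alone were called without replicate 3. Ifnar2 was also lost without replicate 1 (adjusted p = 0.0746). In TPM, with a pseudocount of 1 or 0.1, Ifnar1, Ifnar2 and Stat5a were not called (limma adjusted p = 0.0517 and 0.0639 for Stat5a). Ifnb1 was called there instead, at -1.42 (limma adjusted p = 0.0101) and -2.39 (limma adjusted p = 0.0286), beside Ifngr2. LPS changed 8 of 9 members in JQ1-treated cells (57.1% of genes tested, 27% higher and 30.2% lower) and 9 of 9 in IL-10-treated cells (62.5%, 31% higher and 31.5% lower).

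**Figure D4:**
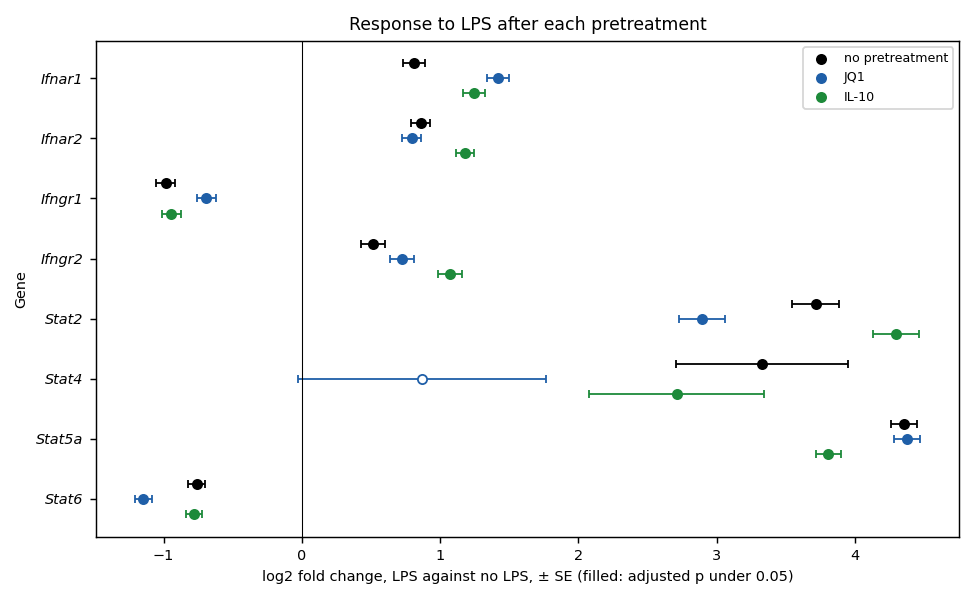
Log2 fold change ± SE (x axis) of LPS against no LPS for 8 members (y axis) in cells without pretreatment, after JQ1 and after IL-10, with filled points at an adjusted p under 0.05. Ifnb1 is left out because groups without LPS had 0 to 2 counts, and Ifngr1 and Stat6 are the genes below 0 in all 3 settings.

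Most of the kinases and partner factors around the members rose with LPS and were lower with JQ1 during LPS. The counts of the lists below stand beside these shares of all genes tested. With LPS, 30.8% were called higher and 32.2% lower. During LPS the shares were 24.4% higher and 32.9% lower with JQ1, and 7.67% and 8.02% with IL-10. Without LPS, 23.1% were called lower with JQ1, and 2.5% higher and 1.47% lower with IL-10. Of the 4 JAK kinases, 3 rose with LPS, with Jak2 at 5.30 ± 0.11, Tyk2 at 2.12 ± 0.08 and Jak1 at 1.23 ± 0.05. During LPS, JQ1 lowered Jak2 by 1.04 ± 0.11, Jak3 by 1.43 ± 0.16 and Tyk2 by 0.46 ± 0.08, and Jak1 was at -0.05 ± 0.05 without passing the test, though 1 kinase was called higher and 2 lower with total-count scaling. IL-10 raised Jak1 by 0.31 ± 0.05 and Jak3 by 0.79 ± 0.15 and lowered Tyk2 by 0.30 ± 0.08. Stat3, Stat5b and Irf9 rose with LPS, by 2.43 ± 0.09, 1.55 ± 0.08 and 1.29 ± 0.08. JQ1 lowered Irf9, the DNA-binding partner of STAT2, by 1.06 ± 0.08 and Stat3 by 1.00 ± 0.09.

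Of the 15 factors that induce Ifnb1, 11 rose and 4 fell with LPS, and during LPS JQ1 lowered 11 and raised 3. The 4 most abundant in TPM were the interferon regulatory factors Irf7, Irf5 and Irf1 and the NF-kB subunit Nfkb1, and JQ1 changed them by -0.89 ± 0.37, -0.92 ± 0.09, -1.07 ± 0.27 and -0.40 ± 0.08. Relb was the single gene of the list not called, at -0.04 ± 0.12. The 3 that rose with JQ1 were Irf3 (0.70 ± 0.11), Traf3 (0.38 ± 0.12) and Jun (1.83 ± 0.08). With total-count scaling JQ1 lowered 6 of the 15 and raised 4. IL-10 lowered 3, among them Irf1 by 0.90 ± 0.27, and raised 2.

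All 23 of the 24 interferon-stimulated genes with an adjusted p rose with LPS, with a median log2 fold change of 6.70 against -0.06 over all genes tested. During LPS, JQ1 lowered 18 of 23 (15 to 23 over the alternatives). Among the 4 most abundant in TPM, Cmpk2 fell by 0.86 ± 0.32, whereas Isg15 was at -0.07 ± 0.25 and Rsad2 at -0.46 ± 0.40 and neither passed. Cxcl10, the most abundant, was given no adjusted p by DESeq2. IL-10 lowered 2 of 23, Ifih1 by 0.41 ± 0.14 and Parp14 by 0.42 ± 0.15, which is near the 8.02% of all genes tested. The count was 0 with total-count scaling, in TPM and without replicate 2 or replicate 3, and 6 without replicate 1. Without LPS, JQ1 lowered 21 of 23 and 20 of 24 without unstimulated replicate 1, the library in which these genes were high. IL-10 lowered 6 of 23 there, and lowered 1 and raised 1 of 24 without that library.

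Of the 13 negative regulators of JAK-STAT signalling, 9 rose with LPS and 3 fell, and JQ1 during LPS lowered 6 and raised 2. Socs1, an inhibitor of JAK kinases, was lowered by 1.11 ± 0.31, Usp18, which binds IFNAR2, by 0.93 ± 0.29, and the phosphatase gene Ptpn6 was also among the 6, whereas Socs3 was at -0.68 ± 0.52 (DESeq2 adjusted p = 0.266). The 13 listed cytokine receptor chains are 11 of receptors that act through Stat4, Stat5 or Stat6 and the 2 of the IL-10 receptor, Il10ra and Il10rb, which acts mainly through Stat3. JQ1 lowered 8 of the 11, among them the GM-CSF receptor chain Csf2ra by 0.87 ± 0.14, and both chains of the IL-10 receptor, Il10ra by 1.93 ± 0.07 and Il10rb by 0.87 ± 0.05, and it raised the GM-CSF and IL-3 receptor chain Csf2rb by 0.53 ± 0.12. Il4ra, the receptor chain upstream of Stat6, was at -0.03 ± 0.12 with JQ1 and rose by 1.65 ± 0.12 with IL-10. Cish, a feedback target of STAT5, fell by 1.59 ± 0.52 with JQ1 and by 2.42 ± 0.52 with IL-10. Of 10 genes listed as Stat6 targets in macrophages, 6 of 9 tested were lower with JQ1 during LPS, among them the chemokine Ccl22 at -3.85 ± 0.96, Fn1 at -3.09 ± 0.17 and the mannose receptor Mrc1 at -0.68 ± 0.18. LPS raised 6 of the 9, or 3 with total-count scaling.

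Macrophage markers moved with these results too. During LPS, 7 of 10 were lower with JQ1 and 2 higher (2 lower and 3 higher with total-count scaling, and 3 of each in TPM), while their summed level was 17911 to 19782 TPM with LPS and 23117 to 26463 TPM with LPS + JQ1. Most of this sum is Lyz2, 1 of the 2 higher with JQ1. Over all libraries its mean was 16350 TPM, against 2346 TPM for Tyrobp, the next of the 10. The markers of other cells summed to 38.2 to 52.6 TPM with LPS and 16.5 to 27.65 TPM with LPS + JQ1, with 5 of 10 tested called lower. The part of either in the results was not tested.

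**Figure D5:**
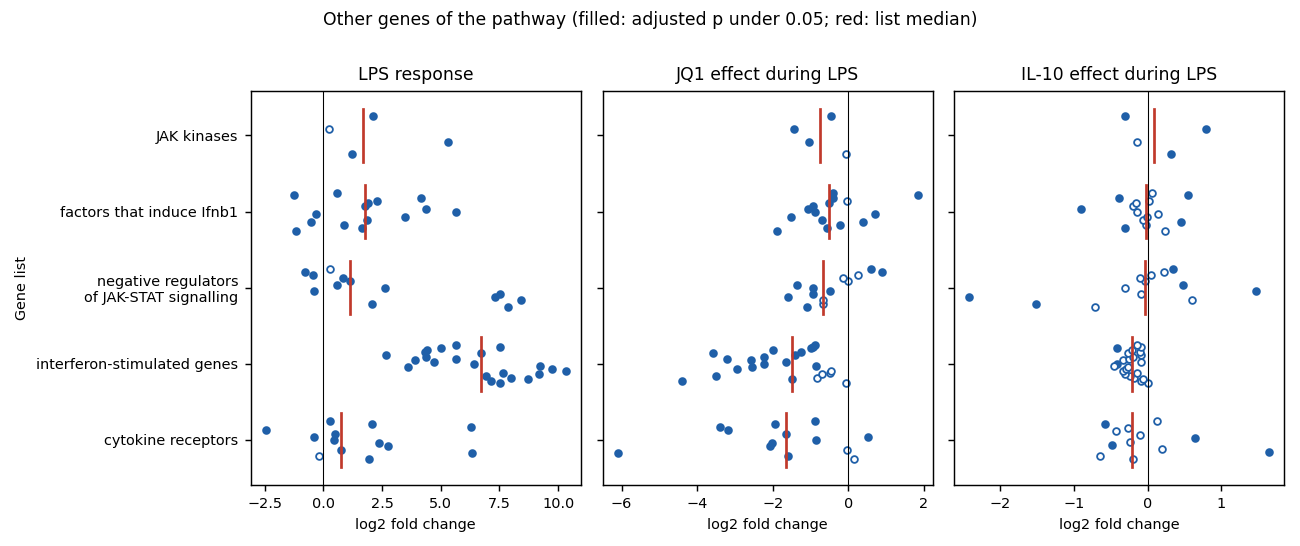
Log2 fold change (x axis) of each tested gene of 5 lists (y axis) for the LPS response and for JQ1 and IL-10 during LPS, with filled points at an adjusted p under 0.05 and a red bar at the list median. The interferon-stimulated genes have a median of 6.70 with LPS, -1.48 with JQ1 and -0.22 with IL-10.

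Across the 18 libraries the members resembled different genes. As a description over 9488 genes with a mean of at least 50 normalised counts, in which the groups are shared by all genes, Stat2 was most like Ifi35 (Pearson r = 0.997), an interferon-stimulated gene, and Stat5a most like Lilrb4a (r = 0.997). Ifnb1 was most like Lap3 (r = 0.994), Ifngr1 like Syt11 (r = 0.990), Stat6 like Bhlhe41 (r = 0.990), Ifnar2 like Dusp16 (r = 0.987), Ifnar1 like Susd6 (r = 0.978) and Stat4 like Marco (r = 0.937). Ifngr2 was most like Ifnar2, another member and a neighbour on chromosome 16 (r = 0.983).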

How the data were processed

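The authors made stranded, ribosomal RNA-depleted libraries, sequenced paired ends of 50 bases, aligned them with STAR to mm9 and quantified genes with RSEM 1.2.31. The authors' expected counts divide reads that match several genes. Between 5.40% and 6.63% of them in a library were fractional, and all were rounded here. TPM was used as deposited. RSEM's default settings ignore strand, so genes overlapping on opposite strands carry uncertain counts. The deposited effective lengths served as an offset; FPKM was left unused.

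Groups, replicate numbers and lanes came from the labels, which call the samples of the conditions biologically matched and name 3 mice, so the numbers were taken to name mice and to pair libraries. The deviations of same-numbered libraries correlated at -0.22 to 0.64 and were negative in 2 of 3 pairs for JQ1 during LPS, so the data did not bear out the pairing in every comparison. The DESeq2 1.42.0 Wald test (R 4.3.3) was fitted to all 18 libraries with group as its term, with default independent filtering. A level of 0.05 for that filtering was also run, which was chosen after seeing the data. Alternatives used edgeR 4.0.16 and limma 3.58.1, with genes of at least 0.1 mean TPM in limma. The fits were also run on simulated data in which as many genes were raised as lowered, in the LPS + JQ1 group only. That setting does not test the dependence on scaling. Counting intervals are 95% exact binomial intervals. Promoters came from RefSeq (GRCm38.p6), gene positions from GENCODE vM1 (mm9). 1 further gene of a fixed list is not reported here. Members and lists were chosen with earlier results of these data known. All members are named, with up to 4 genes of each list by mean TPM, those whose call differed from most of their list, and the genes most like each member. The IRF element was searched for after its promoter had been read.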

Additional observations from a re-analysis of the deposited data

Results flagged for a closer look

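The LPS response of 9 gene and pretreatment pairs differed with the pretreatment, by the interaction term of the DESeq2 Wald test. After JQ1 the response differed by 0.61 for Ifnar1, by 0.29 for Ifngr1, by -0.82 for Stat2, by -0.38 for Stat6 and by -4.91 for Ifnb1 on the log2 scale. After IL-10 it differed by 0.56 for Ifngr2, by 0.43 for Ifnar1, by 0.32 for Ifnar2 and by -0.55 for Stat5a. Ifnar1 was the member called in both, and the pretreatments share the libraries with LPS alone and without treatment. The Ifnb1 value rests on groups with 0 counts. The sign of the Stat6 value turned with total-count scaling and in TPM.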

How the results depend on the processing

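Of 1314 member values under 16 alternatives, 40 changed sign, 26 of them in results that passed the threshold under neither setting. With the replicate number as a block, the single call that changed was the LPS and JQ1 interaction of Stat4, at -2.63 (adjusted p = 0.0401), and with lane as a covariate none of the 90 did. The causes of the changes below were not tested.

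With total-count scaling the LPS response was -0.12 for Ifnar1, -0.067 for Ifnar2 and -0.41 for Ifngr2, and the JQ1 effect during LPS was 0.028 for Ifngr2. In TPM with a pseudocount of 1 or of 0.1 the LPS response of Ifngr2 was -0.26. In the order total-count scaling, TPM + 1 and TPM + 0.1, the LPS and JQ1 interaction of Ifnar2 was 0.49, 0.34 and 0.35, each past the threshold. For Stat6 it was 0.17, 0.13 and 0.13, none past the threshold. The LPS and IL-10 interaction of Stat6 was 0.081, 0.042 and 0.043, the JQ1 effect without LPS on Stat5a was -0.069, -0.073 and -0.077, the IL-10 effect during LPS on Stat6 was 0.0044, 0.022 and 0.022, and JQ1 against IL-10 for Ifnar1 was 0.13, 0.050 and 0.051. The LPS and JQ1 interaction of Ifnar2 was 0.041 by edgeR and 0.062 with TMM scaling. With Stat5a and Stat5b added together, JQ1 gave -0.0020 without LPS and -0.068 during LPS, and the LPS and JQ1 interaction was -0.066.

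Leaving out 1 replicate, or unstimulated replicate 1 alone, changed 2 to 4 members for JQ1 without LPS, 3 to 6 for the LPS and JQ1 interaction and 0 to 4 for the LPS and IL-10 interaction, which was 2 on either TPM scale. Over these fits the JQ1 effect without LPS ran from -0.22 to 0.38 for Stat2 and from -1.72 to 0.087 for Stat4, and the IL-10 effect without LPS on Stat4 from -0.71 to 0.82. The LPS and JQ1 interaction of Stat5a ran from -0.059 to 0.13, and the LPS and IL-10 interaction from -0.018 to 0.12 for Ifngr1 and from -0.035 to 0.021 for Stat6. Ifnb1 and Stat4 rest on low counts. Over all alternatives the number of genes called ran from 109 to 446 for IL-10 without LPS (365 as reported), from 874 to 2119 for IL-10 during LPS (1947), from 4030 to 6382 for JQ1 without LPS (6219), from 3428 to 7083 for the LPS and JQ1 interaction (5253) and from 294 to 930 for the LPS and IL-10 interaction (798).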
